A study of Mus musculus with 15 samples.

Results

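The 628 probe positions described here carried unequal DNA copy signals in the livers of 3 mice. They were selected on the measured values of 3 unaffected livers, out of 40726 autosomal positions. On each array tissue DNA competed with reference DNA, and the value used is the log2 of their signal ratio, averaged over the forward and dye-swap arrays of a liver. A position was taken when this ratio was at least 0.7 in absolute value in 1 or 2 livers and below 0.2 in at least 1 other. The liver values are therefore given as a description, and the values in hepatocellular carcinoma (HCC) of the same mice are the measurement that the choice did not use.

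All 3 mice were of the strain labelled C57BL/6.129 and carried the alleles Mad2flox and p53flox with AlbuminCre, a recombinase driven by the Albumin promoter and so made mainly in hepatocytes. Mouse 3151, a female of 16.4 months that was Mad2 f/f and p53 f/+, gave unaffected liver 1, HCC 1 and HCC 2. Mouse 3760, a male of 13.8 months that was Mad2 f/f and p53 f/f, gave unaffected liver 2 and HCC 3. Mouse 4033, a male of 13.9 months and of the same genotype, gave unaffected liver 3, HCC 4 and HCC 5. Reference DNA came from liver of C57BL/6.129 mice of the opposite sex, wild type per the study. Mouse 3151 was thus hybridised against male DNA and both other mice against female DNA, so a variant of mouse 3151 and one of its reference cannot be told apart in the ratio.

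A copy variant is a stretch of DNA present in unequal numbers in different individuals, and laboratory strains of mice differ by many of them. A variant carried in the germ line is present in every cell, so a tumour and the liver around it start with the same copies. With 1 copy against 2 in the reference the log2 ratio would be -1, and with 3 copies it would be 0.58. A hybridisation probe also loses signal when the DNA differs from it in sequence, and a single probe does not separate such a difference from missing copies.

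Single probes carried most of the pattern, and these 10 are shown because the results below turn on them. The first 6 kept their difference in HCC with the smallest adjusted p values or the largest size, the next 3 belong to gene families with members, and the last was seen in a liver only. The sequences are those printed in the array files, which state neither their strand nor the genome build of the positions.
Rasip1 (chr7:52885244-52885303): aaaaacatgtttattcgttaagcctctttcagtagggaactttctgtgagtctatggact
Lrp12 (chr15:39756090-39756149): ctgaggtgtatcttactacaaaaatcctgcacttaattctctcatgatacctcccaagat
AK173092 (chr13:96787141-96787200): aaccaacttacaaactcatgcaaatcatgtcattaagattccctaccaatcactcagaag
Palmd (chr3:116667721-116667780): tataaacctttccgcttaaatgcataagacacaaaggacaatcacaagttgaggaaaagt
Uqcc (chr2:155706763-155706822): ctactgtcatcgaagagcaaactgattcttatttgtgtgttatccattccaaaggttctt
Etv6 (chr6:134137942-134137999): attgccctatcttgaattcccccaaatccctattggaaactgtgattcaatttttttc
9530098N22Rik, now Skint4 (chr4:111809439-111809498): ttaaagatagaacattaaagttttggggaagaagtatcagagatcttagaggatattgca
Psg25 (chr7:19109168-19109225): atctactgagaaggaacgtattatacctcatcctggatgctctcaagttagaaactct
Klri2 (chr6:129690345-129690404): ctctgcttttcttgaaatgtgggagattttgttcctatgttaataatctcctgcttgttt
Slc7a2 (chr8:41992259-41992318): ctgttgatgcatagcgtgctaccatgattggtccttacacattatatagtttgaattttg

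Unaffected liver 1 stood apart before any result was drawn. Over all autosomal probes its forward and dye-swap ratios correlated with r = -0.073, against 0.239 and 0.277 in unaffected livers 2 and 3, as a description across probes. Its noise, from differences between neighbouring probes, was 0.175 on the log2 scale, against 0.0909 and 0.0835. Unaffected liver 1 was also scanned on a different day and slide from the other livers, on the slide that held HCC 4. When positions were chosen on the forward arrays alone, 2050 were past 0.7 in unaffected liver 1 and 226 of these were past 0.35 with the same sign on its dye-swap array. The same choice gave 96 in unaffected liver 2 with 69 repeated, and 144 in unaffected liver 3 with 124 repeated.

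This shaped the membership. Unaffected liver 1 was past 0.7 at 477 of the 628 members, and 428 of them (68.2% of all members) were past 0.7 in that liver alone. In 187 of the 477 both dye orientations were past 0.35 with one sign. The corresponding counts were 75 of 89 for unaffected liver 2 and 126 of 136 for unaffected liver 3. Tissue was below reference at 476 members, above it at 129, and at 23 it was above in one liver and below in another. Just inside the threshold lay Adat2, Sufu and the probe at chr13:23248791-23248850, with -0.70 in unaffected liver 1 for each. Just outside lay Csk and Ropn1l at -0.70 in unaffected liver 1, and Ifi203 at 0.70 in unaffected liver 2, each short of the threshold in the unrounded value.

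**Figure D1:**
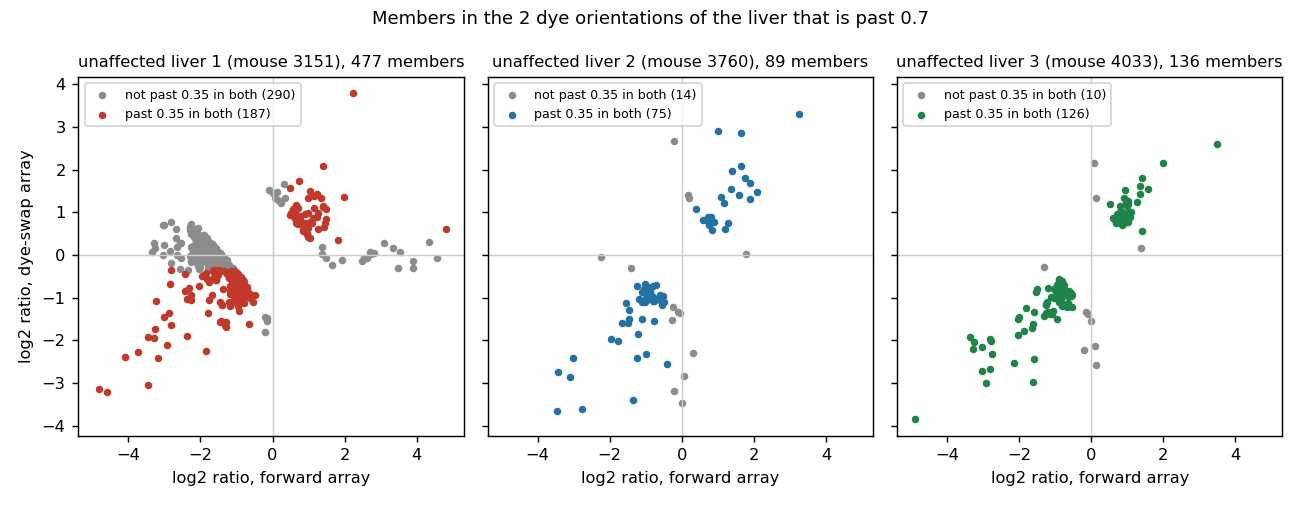
Log2 ratio of tissue over reference on the forward array (horizontal) and the dye-swap array (vertical) of each unaffected liver, for the members past 0.7 in that liver. Coloured points are past 0.35 with one sign in both orientations: 187 of 477 in unaffected liver 1, 75 of 89 in unaffected liver 2 and 126 of 136 in unaffected liver 3.

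The members were then followed into the tumours, to ask which differences between livers were also present in the HCC of the same mouse. HCC values are given relative to the median of the chromosome, because whole chromosomes were gained and lost in the tumours. A member was counted as kept when every HCC of each mouse with a liver past 0.7 was at least 0.35 from the chromosome median with the sign of that liver. Of the 628 members, 233 (37.1%) were kept. Of the 395 others, 347 were past 0.7 in unaffected liver 1 alone.

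Members of each liver were counted in the tumours of the same mouse. Of members past 0.7 in unaffected liver 1, 128 of 477 (26.8%) were kept in both HCC 1 and HCC 2, where 1.96% of all autosomal probes were past 0.35 with one sign in both. In mouse 4033 the count was 110 of 136 (80.9%), against 1.75% of all autosomal probes in HCC 4 and HCC 5. In mouse 3760 it was 68 of 89 (76.4%), against 10.5% of all autosomal probes in its single HCC. These shares were counted without a test. The shares of all autosomal probes count either sign, whereas a kept member needed the sign of its liver. Among members seen in both dye orientations, 120 of 187 were kept in mouse 3151 (64.2%), 66 of 75 in mouse 3760 (88.0%) and 109 of 126 in mouse 4033 (86.5%). Of the 290 members of unaffected liver 1 not seen in both, 8 were kept. Single tumours passed the threshold more often than both together, at 170 of the 477 in HCC 1 and 161 in HCC 2. A member that was not kept thus fell short in at least 1 HCC, not always in all. Tumours of the other mice also passed the threshold at some of these 477, HCC 4 at 110, HCC 5 at 74 and HCC 3 at 26. Of the 477, 39 were past 0.7 in unaffected liver 3 as well. Of the 2050 positions chosen on the forward array of unaffected liver 1, HCC 1 passed at 442 and HCC 2 at 307. HCC 3 passed at 72 of them, HCC 4 at 435 and HCC 5 at 149. The share of all autosomal probes past 0.35 in HCC 1, 2, 4 or 5 taken singly was not counted. The single-tumour counts therefore have no background there and are not compared between tumours.

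Size of the liver difference went with the share kept. In unaffected liver 1, 68 of 328 members between 0.7 and 1 in absolute value were kept, 43 of 129 between 1 and 2, and 17 of 20 past 2. In unaffected liver 2 the counts were 31 of 46, 29 of 35 and 8 of 8, and in unaffected liver 3 they were 60 of 80, 34 of 40 and 16 of 16. Direction also differed, since in unaffected liver 1 45 of 90 members above the reference were kept and 83 of 387 below it. In mice 3760 and 4033 both directions were kept at similar shares, 79.3% above and 75% below in the former and 77.8% above and 82.4% below in the latter. The slope through zero of HCC on the liver was 0.44, 0.47, 0.86, 0.83 and 0.94 in HCC 1 to 5, each on the liver of its own mouse, as a description across members.

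**Figure D2:**
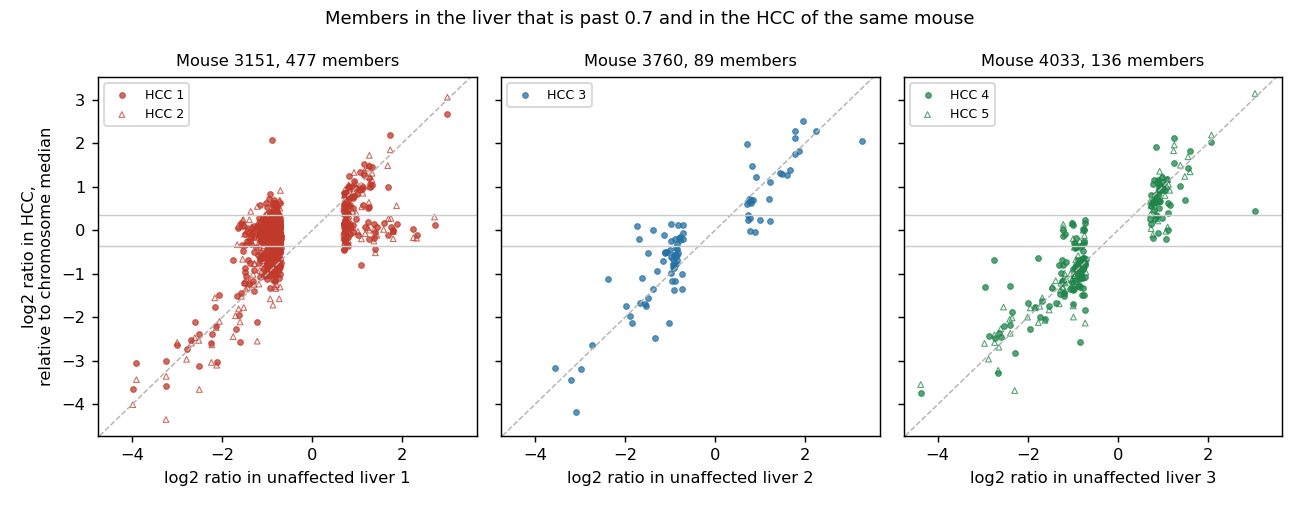
Log2 ratio in the unaffected liver (horizontal) and in each HCC of the same mouse relative to its chromosome median (vertical), 1 point per member and HCC. The dashed line marks equal values and the grey lines 0.35 and -0.35. Points of mice 3760 and 4033 lie along the line, and a cloud of members at -0.7 to -1.5 in unaffected liver 1 lies near 0 in HCC 1 and HCC 2.

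The difference between mice was tested in the 5 HCC alone, with the moderated F test of limma over the 3 mice and Benjamini-Hochberg adjustment across all autosomal probes. Of 40720 probes tested 274 were called at an adjusted p under 0.05, which is 0.673%. Of the members, 99 (15.8%) were called with the direction of the livers. The share was 7.71% of the 428 members past 0.7 in unaffected liver 1 alone (33), and 24.5% of the 151 members in which unaffected liver 1 was not past 0.7 (37). Of the 99, 91 were also kept. Mouse 3760 gave 1 HCC, and without HCC 3 the members called numbered 51. They also numbered 51 when the variance was allowed to follow the mean signal, and 71 with the scan day as a block. The p values rest on the spread between tumours of one mouse, with 2 residual degrees of freedom. A difference given below is the mean over HCC of the mice with a liver past 0.7, called high, minus that over HCC of the mice with a liver below 0.2, called low. A mouse whose liver lay between these limits is in neither, and at single probes the mouse compared is then named. The adjusted p printed beside a difference is that of the F test over all 3 mice. The difference itself was not tested separately.

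A stricter pattern asked that a kept member also had every HCC of a mouse with a low liver within 0.35 of its chromosome. It was seen at 174 of the 233 kept members. It held at 59 of 81 kept members of unaffected liver 1 alone, 27 of 38 of unaffected liver 2 alone and 41 of 52 of unaffected liver 3 alone. Members shared by unaffected livers 1 and 3 had it at 31 of 35, those shared by livers 2 and 3 at 12 of 19, and those shared by livers 1 and 2 at 4 of 8. The share of all autosomal probes that stay within 0.35 in the same HCC was not counted. These counts are therefore a description without a background.

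The largest differences sat at single probes. Rasip1, which encodes a Ras-interacting protein of blood vessel endothelium, read 0.25, -3.19 and 0.10 in unaffected livers 1, 2 and 3. Its HCC values were 0.06 and 0.14 in HCC 1 and 2, -3.43 in HCC 3, and 0.13 and -0.10 in HCC 4 and 5. HCC 3 differed from the mean of HCC 4 and 5 by -3.44 on the log2 scale (SE 0.17, limma adjusted p = 0.000748), and from that of HCC 1 and 2 by -3.52. Mouse 3760 was low in both tissues, and all tissues of the other mice lay between -0.10 and 0.25.

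Lrp12, a receptor of the low-density lipoprotein receptor family, had the opposite distribution over mice. It read -2.12, -0.03 and -2.66 in the livers, -3.02 and -3.10 in HCC 1 and 2, 0.05 in HCC 3, and -3.29 and -3.22 in HCC 4 and 5. The difference between HCC of high and low mice was -3.21 (SE 0.14, adjusted p = 0.000748), and the tissues of mouse 3760 alone sat near the reference. The probe AK173092 on chromosome 13 was the lowest member of all. Its livers read -3.25, 0.03 and -4.38 and its HCC -3.58, -4.35, 0.61, -3.75 and -3.54 in order, a difference of -4.42 (SE 0.27, adjusted p = 0.00267).

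Palmd, which encodes the cytosolic protein palmdelphin, marked mouse 3151. Its ratio was -2.79 in unaffected liver 1, 0.04 and -0.20 in the other livers, -2.73 and -2.96 in HCC 1 and 2, and -0.04, 0.29 and -0.02 in HCC 3, 4 and 5 (difference of mouse 3151 from mouse 3760 -2.81, SE 0.20, adjusted p = 0.00145). AK206798 on chromosome 3 was low in mice 3151 and 3760, with -3.98 and -3.09 in their livers and -0.06 in unaffected liver 3. All 5 of its HCC were low, at -3.65, -4.01, -4.17, -1.58 and -1.47, so the tumours of mouse 4033 were low where their liver was not. The difference between HCC of the high and low mice was -2.41 (SE 0.14, adjusted p = 0.00236).

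The size of these low values depended on the background correction. With normexp in place of the background subtraction of the scanner software, the difference was -1.71 at Rasip1, -2.58 at AK173092 and -1.71 at Palmd, and all 3 were still called. At Lrp12 it was -0.74 and at AK206798 -0.85, and neither was called. Of the 18 named members of one sign that were called, 8 had a difference smaller by over 1.5 times with normexp and 5 lost the call. On forward arrays alone 14 of the 18 lost the call, Lrp12 and AK173092 among them, and none had a difference smaller by over 1.5 times.

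At 23 members 1 liver was above the reference and another below it. The tumours repeated this at 19, and 15 of those had flat HCC in the third mouse. Uqcc, now Uqcc1, an assembly factor of respiratory complex III, read 3.00, 0.01 and -2.64 in the livers and 2.67, 3.06, -0.09, -2.36 and -2.69 in the 5 HCC (adjusted p = 0.000412). Etv6, an ETS family transcriptional repressor needed for blood formation, read -2.13, 1.49 and 0.17 in the livers and -2.21, -2.23, 1.30, -0.05 and 0.03 in the HCC (adjusted p = 0.000666). In the ratios of both genes the 3 mice occupied 3 separate levels in liver and tumour alike. Their tissue and reference signals are given apart below.

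Snrpd1, a core protein of the spliceosome, had the smallest adjusted p of all members, 0.000254. Its livers read -3.00, 1.96 and -0.16 and its HCC -2.63, -2.58, 2.51, -0.50 and -0.43. Relative to the mean over tissues, its tissue signal was -0.63 to -0.13 in mouse 3151 and -1.49 to -0.29 in mouse 4033. In mouse 3760 it was 1.70 and 1.94. The reference signal was 1.66 to 1.85 for mouse 3151 and -1.69 to -0.42 for the males. Riok3, a RIO family kinase on the same chromosome 18, read -1.70, 1.78 and 0.13 in the livers and -2.27, -1.96, 2.29, 0.11 and -0.15 in the HCC (adjusted p = 0.000748). Its tissue signal was -0.59 to 0.07 in mouse 3151, -1.21 to -0.21 in mouse 4033, and 1.66 and 0.78 in mouse 3760. The reference signal was 1.39 to 1.63 for mouse 3151 and -1.72 to -0.30 for the males. In both genes mouse 3151 thus lay below mouse 4033 in the ratio through the reference channel, not the tissue channel. For members with opposite signs the mean over high mice has no clear direction, so only the values and the F test are given.

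**Figure D3:**
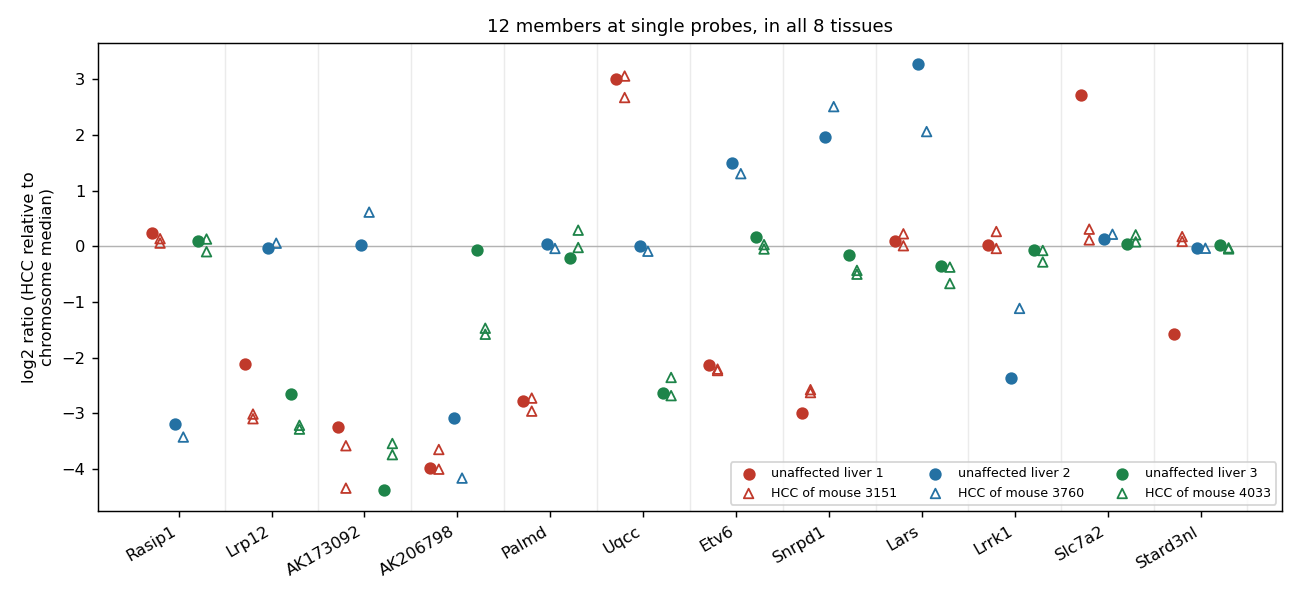
Log2 ratio at 12 single-probe members in the 3 unaffected livers (filled circles) and the 5 HCC relative to the chromosome median (open triangles), coloured by mouse. At Rasip1, Lrp12, Palmd, Uqcc and Etv6 the triangles lie near the circle of their own mouse, and at Slc7a2 and Stard3nl the circle of unaffected liver 1 stands alone.

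Some members were past 0.35 in both orientations of a liver and not in its tumours, although the orientations differed in size. Slc7a2, a transporter of cationic amino acids, read 2.72 in unaffected liver 1, from 4.82 on the forward and 0.61 on the dye-swap array, with 0.14 and 0.04 in the other livers, and 0.11, 0.31, 0.21, 0.20 and 0.08 in the HCC. Stard3nl, a late endosome protein, read -1.58 in unaffected liver 1, from -2.81 and -0.35, with -0.03 and 0.01 in the other livers, and between -0.05 and 0.17 in the HCC. Neither was called (adjusted p = 0.946 and 0.741). Lars, the cytosolic leucyl-tRNA synthetase, was kept at a lower level, with 3.27 in unaffected liver 2 and 2.06 in HCC 3, while its other tissues lay between -0.67 and 0.22 (adjusted p = 0.00479). Lrrk1, a leucine-rich repeat kinase, went from -2.37 in unaffected liver 2, which read -1.36 forward and -3.39 on the dye swap, to -1.12 in HCC 3, with -0.28 to 0.26 elsewhere (adjusted p = 0.0993).

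Joined along the chromosomes, the members formed 589 regions, of which 560 held 1 member, 24 held 2 and 5 held 3 or more. Members with the same high livers and signs were joined across at most 2 other autosomal probes. Of single-member regions 192 were kept (34.3%). Of the 68 members in larger regions, 41 were kept (60.3%), and in 14 of the 29 larger regions every member was kept. The probe next to a member was past 0.35 in the same liver with the same sign at 19.4% of members of unaffected liver 1 alone, 11.1% of unaffected liver 2 alone and 22.2% of unaffected liver 3 alone. Over all autosomal probes the neighbour was past 0.35 with the sign of the probe itself at 9.76%, 2.08% and 2.22%. The nearest probes of most members were thus within 0.35 of the reference or of the other sign.

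The region with the most members lay on chromosome 17 from 30714312 to 31024799, a span of 310.5 kb. It held 5 members, 3 of them in Dnahc8 (now Dnah8), an axonemal dynein heavy chain, and encloses Glo1, the glyoxalase that detoxifies methylglyoxal. Glo1 and Dnah8 belong to a stretch known to be duplicated in some inbred strains. The mean over the 5 members was 0.98 in the liver and 0.90 and 0.79 in the HCC of mouse 4033. Mouse 3151 had 0.47 in its liver and 0.44 and 0.74 in its HCC, and mouse 3760 had 0.00 and -0.03. The tissues of mice 4033 and 3151 all lay above those of mouse 3760.

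Within it, AK002941 was called in HCC, with a difference of mouse 4033 from mouse 3760 of 1.48 (SE 0.16, adjusted p = 0.0235), and 4 of 5 members were kept. The exception was the Dnahc8 probe at 30878279 to 30878338, with 0.83 in unaffected liver 3 and 0.26 and 0.27 in HCC 4 and 5. The Glo1 probes, which are not members, read 0.67 and 0.92 in the liver of mouse 4033, 0.16 and 0.59 in that of mouse 3151, and -0.01 and -0.26 in that of mouse 3760. Next to them both probes of Glp1r, the receptor for glucagon-like peptide 1, were members past 0.7 in unaffected livers 1 and 3. Their mean was 0.79, 0.00 and 0.95 in the livers and 0.79, 0.96, 0.12, 0.87 and 0.93 in the HCC. At Umodl1, the next gene beyond Glp1r, the first probe read -0.20, 0.03 and -0.02 in the livers. On the other side the Btbd9 probe at 30622143 read 0.39, 0.03 and 0.58.

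On chromosome 4 from 111745389 to 111931245, 4 adjacent members lay above the reference in mouse 3151. They include 9530098N22Rik and A430090E18Rik, now Skint4 and Skint3, immunoglobulin-like genes named for the upkeep of intraepithelial T cells of the skin. The mean was 0.84, -0.03 and -0.06 in the livers and 0.92, 0.91, 0.09, -0.01 and 0.10 in the HCC, and all 4 members were kept. The Skint4 probe differed by 1.14 between HCC of mouse 3151 and the others (SE 0.12, adjusted p = 0.0209). A030013N09Rik, now Skint9, and a neighbouring probe made a further region of 2 members from 112102035 to 112130148, with a mean of 1.03 in the liver and 0.68 and 0.97 in the HCC of mouse 3151. Of 10 autosomal Skint probes 3 were members.

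A further 2 regions of 3 or more members rested on unaffected liver 1 and were mostly not kept. Usp33, a deubiquitinase, and Zzz3, a chromatin-associated zinc finger protein, held 3 members on chromosome 3 with a mean of -0.93 in unaffected liver 1 and of -0.02 and -0.10 in HCC 1 and 2. None of the 3 was kept or called (limma adjusted p from 0.526 to 0.586), and 1 probe between them that is no member read -0.06 in that liver. Around AK083061 on chromosome 19, 4 members had a mean of -1.09 in unaffected liver 1 and -0.23 and -0.38 in HCC 1 and 2, with 1 kept. There 3 interspersed probes read from 0.03 to 0.12 in the same liver.

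**Figure D4:**
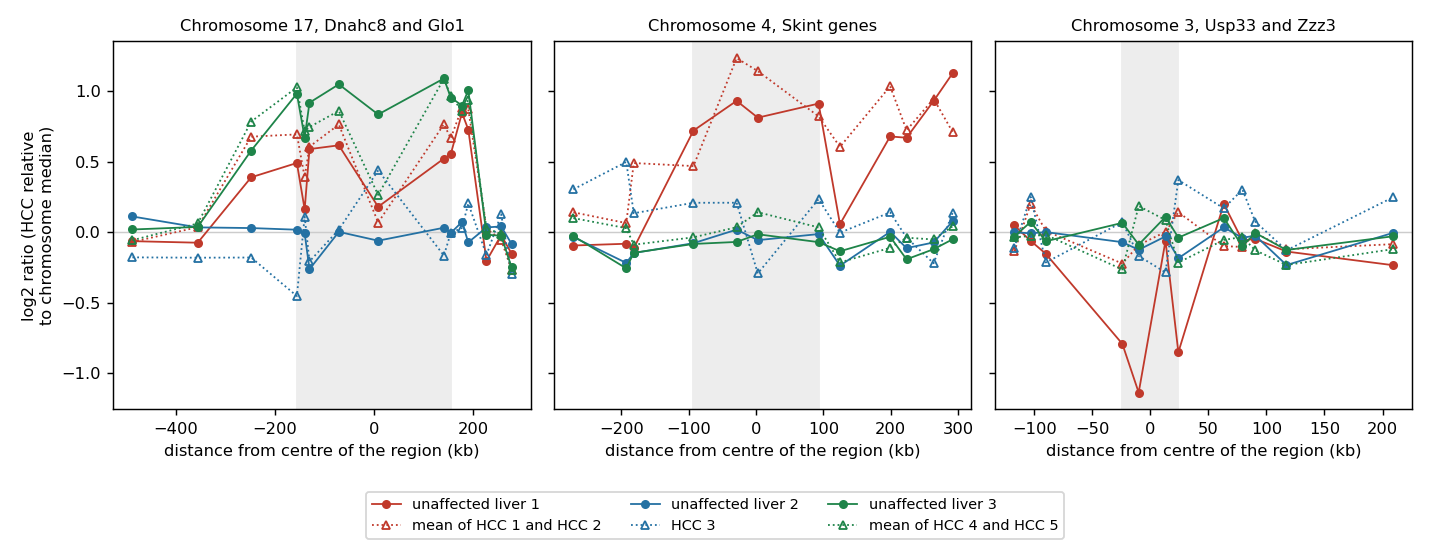
Log2 ratio along 3 regions, by distance from the centre of the region in kb, in the 3 unaffected livers (solid lines, circles) and in the HCC of the same mouse (dotted lines, triangles, mean where there were 2). Grey marks the members joined. The Dnahc8 region is raised in both tissues of mice 4033 and 3151, the Skint region in mouse 3151, and the drop of unaffected liver 1 at Usp33 and Zzz3 has no counterpart in HCC.

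Pairs of members gave smaller regions, described here after their values were seen. Scd4, a stearoyl-CoA desaturase, and Wnt8b, a Wnt ligand, lay together on chromosome 19 with a mean of -1.92 in the liver and -2.57 in either HCC of mouse 3151, and between -0.29 and 0.17 in all other tissues. Tectb, a protein of the tectorial membrane of the ear, and Gucy2g, a guanylate cyclase, had -1.53, -1.20 and -1.36 in the tissues of mouse 3151. All 4 of these probes were called. Dnajc17 and Ppp1r14d on chromosome 2 read a mean of -1.93 in unaffected liver 2 and -1.86 in HCC 3, and lay below the reference in mouse 4033 too, at -0.60 in its liver and -0.20 and -0.68 in its HCC. Itln1, an intelectin that binds microbial sugars, and Cd244, a receptor of natural killer cells, had 0.78 in unaffected liver 3 and 0.55 and 0.69 in HCC 4 and 5.

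Members were also counted over longer distances. The windows named here were picked for their many kept members, and no expected count per window was made. In windows of 10 Mb, counted after the values were seen, chromosome 1 from 170 to 180 Mb held 7 members of unaffected liver 3 alone and chromosome 2 from 110 to 120 Mb 6 of unaffected liver 2 alone, and all of these were kept. None of the 7 and 1 of the 6 were called between mice in HCC. Chromosome 13 from 90 to 100 Mb held 4 members shared by unaffected livers 1 and 3, all below the reference and all kept, AK173092 among them, with 2 called. Another was Crhbp, the binding protein of corticotropin-releasing hormone, with -0.78, -0.06 and -0.93 in the livers and -0.49, -0.81, 0.28, -0.81 and -0.68 in the HCC. Chromosome 7 from 110 to 120 Mb held another 6 of unaffected liver 2 alone, all below the reference and all kept, with none called. All 6 on chromosome 2 were also below the reference, Dnajc17 among them. On chromosome 4 from 110 to 120 Mb, 7 of 12 members of unaffected liver 1 alone were kept, 6 of them in the Skint regions, and 3 of the 12 were called. By chromosome, members made up from 0.838% of autosomal probes on chromosome 10 to 2.99% on chromosome 4, and kept members from 0.168% on chromosome 11 to 1.38% on chromosome 17.

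Gene families whose members are known to vary between strains were compared by count with the 1.54% of all autosomal probes that were members. Natural killer receptors of the Klr family had 3 members of 27 probes (11.1%), all below the reference and all kept. Klri2 read -0.73, 0.04 and -2.40 in the livers and -0.89, -1.57, 0.18, -2.18 and -2.05 in the HCC (difference -1.86, SE 0.25, adjusted p = 0.033). With normexp this difference was -0.32, and the call was lost there, on forward arrays alone and with outlier-marked spots kept. A probe of Klra22, a receptor of the Ly49 family, read -0.69, 0.09 and -1.68 in the livers and -0.62, -1.18, -0.33, -1.61 and -1.55 in the HCC, and was not called (adjusted p = 0.166). In both genes the ratio of every tissue of mice 3151 and 4033 lay below that of every tissue of mouse 3760. The Klri2 tissue signal, relative to the mean over tissues, was 0.32 to 1.02 in mouse 3151 and 0.95 and 0.69 in mouse 3760. In mouse 4033 it was -1.53 to -1.08. The Klra22 tissue signal was 0.39 to 0.75, 0.84 and 0.32, and -1.22 to -0.87 in the same order. The reference signal for mouse 3151 was 0.53 to 0.71 at Klri2 and 0.37 to 0.64 at Klra22, and below 0 for the males.

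Among genes of the major histocompatibility complex 1 of 21 probes was a member, H2-T3, which encodes the thymus leukaemia antigen. It read 1.33, 0.07 and 0.54 in the livers and 1.46, 1.31, -0.15, 0.69 and 0.58 in the HCC (difference of mouse 3151 from mouse 3760 1.53, SE 0.16, adjusted p = 0.0187). Mouse 4033 held the middle in the ratio only. Its tissue DNA signal, relative to the mean over tissues, was 0.28 in liver and 0.235 and 0.10 in HCC. Mouse 3151 had 0.13, 0.06 and 0.07 there, and mouse 3760 -0.28 and -0.59. The reference signal was -0.52, -0.67 and -0.50 for mouse 3151, 0.47, 0.29 and 0.28 for mouse 4033, and 0.38 and 0.28 for mouse 3760. J00393 on the same chromosome 17 read -3.90, -0.17 and -2.87 in the livers and -3.04, -3.43, -0.04, -2.42 and -2.96 in the HCC (adjusted p = 0.00626). Psg25, a pregnancy-specific glycoprotein, was 1 member of 16 Ceacam and Psg probes. Its livers read 1.33, -0.01 and -0.45 and its HCC 1.05, 1.16, -0.01, -0.06 and 0.00 (difference of mouse 3151 from mouse 3760 1.12, SE 0.16, adjusted p = 0.0183).

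Families of drug and sterol metabolism held 1 member or none each. Of 109 cytochrome P450 probes 1 was a member (0.917%), Cyp39a1, an oxysterol hydroxylase of bile acid synthesis. It read -1.47, -0.12 and -0.84 in the livers and -1.06, -1.35, -0.11, -1.10 and -0.84 in the HCC, and was kept and not called (adjusted p = 0.155). Of 21 UDP glucuronosyltransferase probes 1 was a member (4.76%), Ugt3a1, with 0.56, 0.09 and -1.02 in the livers and 0.70, 0.45, 0.04, -1.20 and -1.14 in the HCC (difference of mouse 4033 from mouse 3760 -1.20, SE 0.17, adjusted p = 0.00626). Sulfotransferases (24 probes) and glutathione S-transferases (31 probes) had none.

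Other families drew most of their members from unaffected liver 1. Of 666 olfactory receptor probes 6 were members (0.901%) and 3 were kept. Olfr113 read -0.94 in unaffected liver 1 and -1.03 and -0.92 in HCC 1 and 2, while Olfr1256 went from -1.06 to 0.03 and 0.13. Of 484 Zfp probes 11 were members (2.27%), 10 of them past 0.7 in unaffected liver 1 alone, and 2 were kept. Zfp61 read 1.06 in unaffected liver 1, 1.33 and 0.93 in HCC 1 and 2 and between -0.36 and -0.02 in the other tissues (adjusted p = 0.0319). In the HCC its tissue signal in mouse 3151 differed by 0.41 from mouse 3760 and by 0.25 from mouse 4033. The reference signal differed by -1.01 and -0.93. Zfp35 and Zfp667 read -1.14 and -1.13 in unaffected liver 1 and between -0.13 and 0.24 in HCC 1 and 2. Defensins (30 probes) and vomeronasal receptors (66 probes) had no member.

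The signals of the 2 channels were examined apart, because the ratio rests on tissue and reference DNA alike. In the HCC arrays, limma called 562 probes between mice in the reference channel, 1.38% of those tested, and 813 in the tissue channel, 2.00%. Of the members 50 were called in the reference channel and 94 in the tissue channel, each with the direction that the ratio of the livers implies. Leaving out HCC 1, 2 or 3 left 12, 13 and 15 members called in the reference channel. In the tissue channel 62 were called without HCC 2 and 28 without HCC 3. On forward arrays alone limma called no probe in the reference channel, where 2304 of 40357 probes and 151 members had an unadjusted p under 0.05.

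The larger of the 2 channel differences was in the reference at 89 of the 233 kept members and in the tissue at 144. At kept members of unaffected liver 1 alone it was in the reference at 45 of 81, and at kept members of unaffected liver 3 alone at 12 of 52. Against all mice without a high liver, a comparison added after the values were seen, it was in the reference at 84 of 233, 45 of 81 and 10 of 52. The Skint region was of the first kind. Over its 4 members the tissue channel differed by -0.09 between HCC of mouse 3151 and the others, and the reference channel by -0.98. At the Skint4 probe the reference channel read -0.74, -0.77 and -0.75 on the arrays of HCC 1, HCC 2 and unaffected liver 1, relative to the mean of the 8 tissues, and from 0.38 to 0.54 on those of the males. Its tissue channel stayed between -0.12 and 0.09 in all 8, so the arrays with male and with female reference DNA differed here in the reference channel. Vasp, an actin regulator on chromosome 7 picked after its values were seen, had -0.77, -0.79 and -0.85 in the reference channel of mouse 3151 and 0.23 to 0.60 in that of the males. At Psg25 the reference channel of mouse 3151 differed by -1.90 from that of mouse 3760 and by -1.25 from that of mouse 4033. Its tissue channel differed by -0.80 and -0.12.

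Other members differed in the tissue channel. At Rasip1 the difference of HCC 3 from HCC 4 and 5 was -3.38 in the tissue and 0.05 in the reference, at Lrp12 -3.05 and 0.16, and at AK173092 -4.60 and -0.19. At Klhl25, an adaptor of a ubiquitin ligase also picked after its values were seen, the tissue channel read -1.11 in both tissues of mouse 3760 and between 0.16 and 0.49 in the other 6, and the reference channel between -0.15 and 0.20 throughout. The pair of Scd4 and Wnt8b had -2.45 and 0.03, and the Dnahc8 region 0.73 and -0.17. At some members the split depended on the mouse compared. At Palmd mouse 3151 differed from mouse 3760 by -1.66 in the tissue and 1.16 in the reference, and from mouse 4033 by -0.32 and 2.67. At Lars mouse 3760 differed from mouse 3151 by 0.48 in the tissue and -1.42 in the reference, and from mouse 4033 by 3.06 and 0.51.

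**Figure D5:**
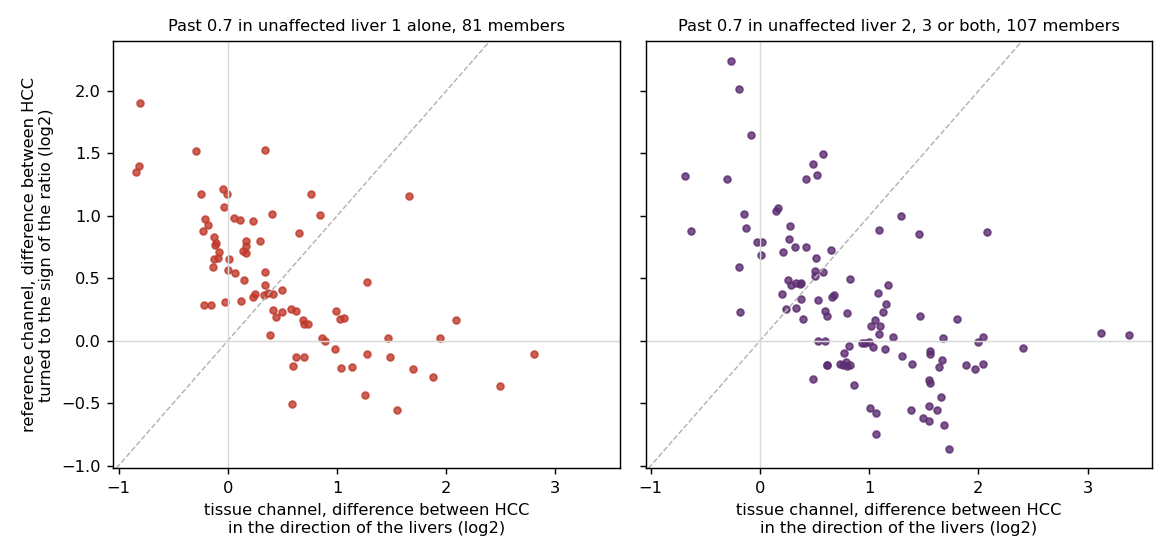
Difference between HCC of high and low mice in the tissue channel (horizontal) and, with its sign turned to that of the ratio, in the reference channel (vertical), for kept members without opposite signs in 2 livers. Above the dashed line the reference channel holds more of the difference, as at 45 of the 81 members of unaffected liver 1 alone (left).

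The engineered genes were looked at last. The Trp53 probe (chr11:69397121-69397180) met the rule, with -0.07, -0.88 and -0.72 in unaffected livers 1, 2 and 3. Mice 3760 and 4033 carry 2 floxed alleles and mouse 3151 carries 1. The high livers differed from the low liver by -0.08 in the tissue channel and by 0.64 in the reference channel. The HCC read -0.75 and -0.92 in mouse 3151, -0.20 in mouse 3760, and -1.82 and -2.13 in mouse 4033 (adjusted p = 0.0146), and the member was not kept because of HCC 3. The Mad2l1 probe (chr6:66489958-66490017) stayed just under the threshold, with 0.01, 0.36 and 0.69 in the livers and -1.53, -1.04, 0.12, 0.20 and 0.91 in the HCC (adjusted p = 0.0617). Within 10 Mb of Mad2l1 there were 2 members of 247 probes (0.81%), and within 10 Mb of Trp53 5 of 663 (0.754%). Of all autosomal probes 1.54% were members. In bulk tissue a lower signal from fewer cells carrying a loss and from fewer copies per cell cannot be told apart.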

How the data were processed

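Genomic DNA of 8 tissues was measured on 15 two-colour arrays, in 8 forward and 7 dye-swap hybridisations. HCC 3 had the forward one only. The deposited scanner files hold intensity values that the authors made with Agilent Feature Extraction 9.1.3.1, background-subtracted and dye-normalised. The authors' log10 ratios in the series table equalled those of the scanner files, with the sign turned on dye swaps.

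Tissue signal was divided by reference signal and put on the log2 scale, without control spots and outlier-marked spots. The values were turned on dye swaps, centred on the autosomal median of each array, and averaged over orientations. The members, gene lists and tests were chosen with earlier results of these data known. HCC were tested between mice with limma 3.58.1 (lmFit and eBayes, moderated F) in R 4.3.3, on ratios centred on the chromosome median, with Benjamini-Hochberg adjustment over all autosomal probes. Single-channel log2 intensities were fitted with the same model. The tissue channel was centred on the chromosome median and the reference channel on the autosomal median. SE comes from the moderated variance. The tumours of one mouse were its replicates. The number of tissues limits precision. Steps were tested on simulated data.

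Members named were regions of 3 or more, the 8 single probes with the largest liver difference, examples from each gene list, the 6 that departed most from the liver in every own HCC, of those past 0.35 in both orientations, the 6 with the smallest adjusted p, and those nearest the threshold. One of the regions of 3 or more is not reported here. Some examples of these groups are given by count only. Genes are called as in the array files. The GRCm38.p6 gene table held 315 member names as current symbols and 75 as synonyms. Alternatives covered normexp background (offset 50), the authors' ratio table, centring, dye orientation, spot filters and thresholds. Python 3.11.15 and matplotlib 3.10.9 were used.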

Additional observations from a re-analysis of the deposited data

Results flagged for a closer look

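Single tumours that stood apart from the other 4 were looked for among 55 named members, by the gap to the nearest value over the range of the 5 HCC. At 8 members this gap was above the limit of 0.71. Chance gives about 1 in 20 among like samples, but this rate does not apply here, because the members were chosen for differences between mice and some for their p in the same HCC. HCC 3, the only tumour of mouse 3760, stood apart at 6 of them. It read -3.43 at Rasip1, 0.054 at Lrp12, 0.61 at AK173092, -0.45 at AK002941, 0.0185 at the Dnahc8 probe from 30798985 and 0.072 at Usp33. HCC 1 stood apart at the Dnahc8 probe from 30878279, with -0.20, and at D19Ertd737e, with 0.54.

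At 6 members both HCC of the female mouse 3151 departed from their liver in one direction and all 3 HCC of the males in the other. This difference was not tested and rests on a single female mouse. It uses the liver values by which the members were chosen, and Slc7a2 and Stard3nl were named for departing from their liver. The mean departure of the female minus that of the males was -2.60 at Slc7a2, 1.75 at Stard3nl, 1.32 at Zfp35, -1.40 at AK173092, -0.74 at Klri2 and -0.24 at A430090E18Rik. At Slc7a2, Stard3nl and Zfp35 the liver of mouse 3151 was past 0.7 and its HCC were within 0.35 of the chromosome median.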

How the results depend on the processing

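Forward arrays alone gave 2208 members in 1905 regions, of which 406 were kept and 19 called in HCC. Dye-swap arrays alone, without HCC 3, gave 1025 members in 975 regions, of which 15 were called. A threshold of 0.5 gave 1578 members in 1404 regions with 411 kept, and one of 1.0 gave 220 in 211 regions with 119 kept. A variance trend left 51 called. The reference channel calls went to 0 on forward arrays and 33 with normexp. Leaving out 1 HCC or, as chosen after seeing the data, 1 liver gave 151 to 454 members, 134 to 427 regions, 48 to 114 members called, 109 to 275 kept, 12 to 81 called in the reference channel and 28 to 132 in the tissue channel. Without unaffected liver 1 there were 151 members, 48 called and 115 kept. In all other alternatives the counts stayed within 1.5 times those reported. Chosen after seeing the data, the members past 0.35 in both orientations gave 95 called and 223 kept of 314.

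Among 376 alternative values of the 55 named members, 9 turned sign. On forward arrays they were -0.18 at the Dnahc8 probe from 30878279, 0.024 at BC076607, -0.095 at D19Ertd737e, -0.086 at AK162813, -0.65 at Zzz3 and -0.12 at Zfp667. With normexp they were 0.044 at AK083061, -0.12 at Zzz3 and 0.080 at Serpinh1. None of these 8 members was called. The causes were not tested. A slide as a random block could not be fitted, since no correlation within slides could be estimated with the mouse in the fit. No paired analysis was possible because the mouse is itself the factor compared.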
